A study of Mus musculus with 1047 samples.

Results

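The cells described here are microglia of the aged mouse brain that carried transcripts of Spp1, Lpl or both, measured by droplet sequencing (10x). A cell was taken when it had at least 1000 detected genes, at least 30 UMIs of P2ry12, Cx3cr1 and Trem2 together per 10000, at least 5 UMIs of Lpl and Spp1 together per 10000, and fewer than 3 of the 5 interferon-induced genes Ifit2, Ifit3, Mx1, Ifi204 and Ifi211. A UMI is a molecular identifier that counts 1 captured transcript. Of 21197 barcodes, 10849 passed the first 2 criteria and are called gated microglia, and 730 of these met the whole rule. They made up 6.73% of gated microglia (exact 95% interval 6.26 to 7.22%, counting error only) and 3.44% of barcodes.

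The aged 10x data came from 5 libraries of male C57BL/6J mice aged 24 months, each a pool of 3 or 4 animals, 3 titled grey matter and 2 titled white matter, all with wild type titles. The white matter library of batch 3 carried the genotype ApoeKO against its title. Tissue was dissociated with actinomycin D, a transcription blocker, at 45 uM. Other samples used below were Smart-seq2 cells, 1 cell per well, of WT (C57BL/6J) and Trem2ko mice aged 18 to 20 months, separately from grey and white matter. A further Smart-seq2 set came from the prefrontal cortex of the amyloid model 5xFAD and of WT mice, aged 6 to 7 months, and 10x columns were deposited with male ApoeKO white matter libraries (B6.129P2-Apoetm1Unc/J, 18 months, pools of 2 mice). Smart-seq2 grey matter was taken from frontal cortex, and white matter from corpus callosum together with optic tract and medial lemniscus. No sort is named for the 10x cells, from which myelin was removed with beads. WT animals of the aged Smart-seq2 set were male except A1, the Trem2ko animals were of both sexes, and the prefrontal cortex animals used were female.

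Microglia are the resident macrophages of the brain. In the healthy brain they carry a homeostatic program that includes the purinergic receptor P2ry12 and the membrane protein Tmem119, and in injury, demyelination, amyloid models and ageing white matter some of them switch to a program of lipid handling, lysosomal degradation and secretion known as the disease-associated (DAM) or white matter-associated state. Osteopontin (Spp1) is a secreted phosphoprotein that binds integrins and CD44, and lipoprotein lipase (Lpl) hydrolyses triglycerides of lipoproteins so that fatty acids can be taken up.

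Of the 7 genes that mark the cells, 5 had a sequence upstream of a RefSeq start. The 250 bases before the first start are shown for Spp1, Ccl3 and Itgax, because these represent the secreted ligands, the chemokines and the surface integrins of the marker set. Capitals mark matches to AP-1 (TGANTCA) or PU.1 (GGAAGT, or ACTTCC on the other strand), the motifs of an activation-dependent and of a macrophage-determining transcription factor, searched on both strands. Lpl and Ccl4 are named only.

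The Spp1 window lies on the plus strand at chr5:104434861-104435110 (GRCm38.p6), directly upstream of the gene, and held 1 PU.1 match, 111 bases before the start.
Spp1: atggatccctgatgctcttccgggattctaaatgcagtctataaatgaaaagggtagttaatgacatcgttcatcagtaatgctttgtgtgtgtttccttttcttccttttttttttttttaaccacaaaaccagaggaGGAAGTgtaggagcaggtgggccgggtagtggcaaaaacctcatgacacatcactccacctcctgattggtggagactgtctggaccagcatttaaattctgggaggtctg
The Ccl3 window lies on the minus strand at chr11:83649379-83649628 and held 1 PU.1 match on the other strand, 209 bases before the start.
Ccl3: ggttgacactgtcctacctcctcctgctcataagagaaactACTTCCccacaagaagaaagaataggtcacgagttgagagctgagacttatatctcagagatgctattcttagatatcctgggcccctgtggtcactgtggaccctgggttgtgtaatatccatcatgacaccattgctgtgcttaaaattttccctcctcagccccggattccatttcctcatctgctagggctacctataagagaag
The Itgax window lies on the plus strand at chr7:128129300-128129549 and held 1 AP-1 match, 56 bases before the start, and 2 PU.1 matches.
Itgax: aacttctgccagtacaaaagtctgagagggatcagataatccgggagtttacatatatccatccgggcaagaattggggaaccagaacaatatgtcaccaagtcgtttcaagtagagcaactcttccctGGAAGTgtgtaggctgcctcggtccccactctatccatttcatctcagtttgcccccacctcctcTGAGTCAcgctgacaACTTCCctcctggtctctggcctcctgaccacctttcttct
Over all 32851 RefSeq windows of the same length, 6.75% held the AP-1 letters and 19.7% the PU.1 letters. The kappaB letters GGGNNTTCC were in 4.98% and the E-box letters CACGTG in 6.02% of windows, and neither was in these 3 windows. The Igf1 window held 1 AP-1 match and the Lgals3 window none of the 4 motifs. A match is a description of the letters and not a measured binding site.

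Spp1 and Lpl positive microglia came almost entirely from 2 of the 5 barcode endings. Barcodes in the aged table end in 1 of 5 suffixes that no label ties to a library or tissue, so the whole table was handled as 1 pooled sample without a test. Ending 2_1 held 382 positive cells of 2288 gated microglia (16.7%, exact 95% interval 15.2 to 18.3%) and ending 2_2 held 335 of 2115 (15.8%, 14.3 to 17.5%). Ending 1_1 held 4 of 1123 (0.356%), ending 1_2 held 4 of 2526 (0.158%) and ending 3 held 5 of 2797 (0.179%). Endings 2_1 and 2_2 therefore supplied 717 of the 730 cells (98.2%). The same endings also held 976 and 1121 of the 2399 gated microglia with high Apoe and without this Lpl and Spp1 level. Gene levels below are given separately for endings 2_1 and 2_2, because cells outside them make up much of the comparison sets. Across the endings, 41 barcode sequences occurred in more than 1 ending (82 cells), and 7 positive cells carried one.

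**Figure D1:**
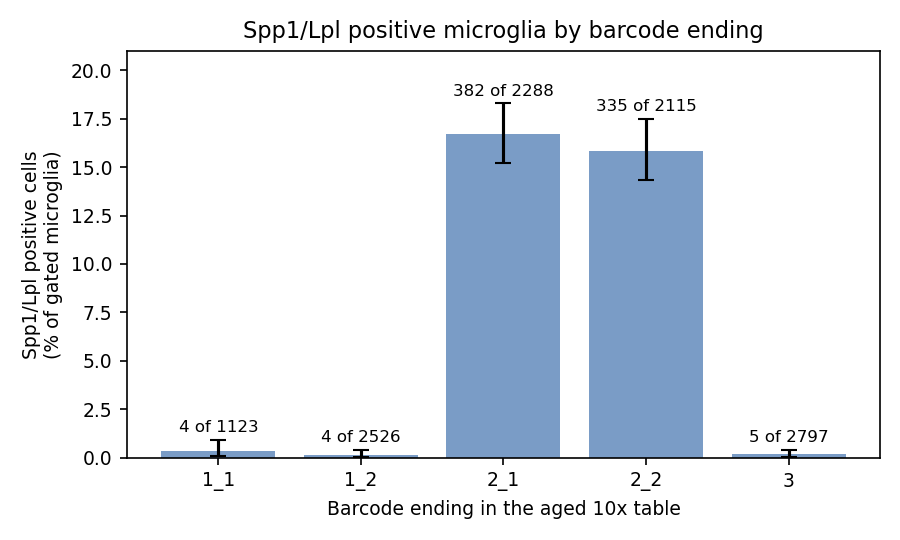
Share of gated microglia that met the Spp1 and Lpl rule (y axis, percent) in each barcode ending of the aged 10x table (x axis), with exact 95% binomial intervals and cell counts above the bars. Endings 2_1 and 2_2 reach 16.7% and 15.8%, and the other 3 lie below 0.4%.

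The rule was met mostly by cells with both transcripts. Both Lpl and Spp1 were detected in 469 cells, Lpl alone in 232 and Spp1 alone in 29. The summed Lpl and Spp1 level, which the rule used, had a lower quartile of 7.12, a median of 12.7, an upper quartile of 32.5 and a maximum of 469.8 UMIs per 10000. The cells just inside the threshold (5 to 6 per 10000, 107 cells) and just outside it (4 to 5 per 10000, 141 cells) are given as a description. Apoe was 306.9 inside and 347.9 outside, Lgals3 was 1.62 and 2.53, and Ccl3 was 0.886 and 1.51 UMIs per 10000. Igf1 was 0.604 inside and 0.446 outside, Itgax 0.771 and 0.718, and Ch25h, an oxysterol-producing enzyme, 0.281 and 0.0418. Genes thus went both ways across the threshold.

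Trem2, Cx3cr1 and P2ry12 served in the gate, so their presence is no check of the microglia label. Csf1r, which the rule did not use, was detected in 100% of the positive cells and Tmem119 in 71.6%. Markers of other cell classes were present in part of the positive cells. Of the positive cells, 165 (22.6%) had 3 or more markers of 1 other class, chiefly astrocyte (130 cells) and oligodendrocyte (29 cells), against 28.3% of Apoe-high and 47.8% of Apoe-low microglia. No doublet caller was run. Of 8 border macrophage markers, Cd163, Lyve1 and Cd209f had 0 UMIs in positive cells, whereas Ms4a7 had 603 UMIs in 17.1% of them. The summed level of those 8 markers was 0.774 in positive and 0.384 in Apoe-high cells of ending 2_1, and 0.721 and 0.295 in ending 2_2. Over all endings it was 0.798 in positive and 1.07 in Apoe-high cells. There 5 of the markers had at least 100 UMIs over both sets, 1 at least 2-fold higher and 4 lower. Of all genes, 1.5% were higher and 5.52% lower. Only 1 of the 8 had that many UMIs within each ending. At least 3 of the 8 were detected in 1 positive cell (0.137%) and 46 Apoe-high cells (1.92%). Positive cells were also deeper, with a median of 10640 UMIs (range 1647 to 46133) against 8800 in Apoe-high microglia. The part of depth and of other cell classes in the level differences below was not tested beyond the values given.

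All 7 marker genes were higher in Spp1 and Lpl positive microglia than in Apoe-high microglia in both endings. Apoe-high microglia were the gated cells without the interferon genes and under the Lpl and Spp1 threshold whose Apoe lay in the upper 25%, at or above 42.7 UMIs per 10000. They are the nearest comparison, since 658 of the positive cells (90.1%) reached the same Apoe level. Spp1 (chromosome 5, 104435118 to 104441050, plus strand, GRCm38) and Lpl (chromosome 8, 68880491 to 68907448, plus strand) chose the cells, so their levels are a description. Spp1 was 35.5 UMIs per 10000 in positive and 0.325 in Apoe-high cells of ending 2_1, and 18.95 and 0.270 in ending 2_2. Lpl was 13.3 and 1.16 in ending 2_1, and 13.5 and 0.955 in ending 2_2. The positive cells of ending 2_1 thus had a higher summed Spp1 level than those of ending 2_2 at an almost equal Lpl level. The median Spp1 per positive cell was closer, at 2.92 in ending 2_1 and 2.32 in ending 2_2. The 39 highest cells of ending 2_1 held 77.7% of its Spp1 UMIs, and the 34 highest of ending 2_2 held 73.4%.

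Ccl3 and Ccl4 encode the chemokines MIP-1alpha and MIP-1beta, which attract immune cells, and neighbour each other on chromosome 11 (83647844 to 83649355 and 83662584 to 83664683). Ccl3 was 6.80 UMIs per 10000 in positive and 1.21 in Apoe-high cells of ending 2_1, and 5.78 and 0.802 in ending 2_2. Ccl4 was 8.03 and 1.93 in ending 2_1, and 7.95 and 1.15 in ending 2_2. On the log2 scale these are differences of 2.49 and 2.85 for Ccl3 and of 2.05 and 2.79 for Ccl4.

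Igf1, a growth factor that supports neurons and oligodendrocytes, was 1.32 against 0.260 UMIs per 10000 in ending 2_1 and 1.48 against 0.324 in ending 2_2. Lgals3, the galactose-binding lectin galectin-3, was 6.53 against 1.07 and 5.02 against 0.876. Itgax, the integrin CD11c, was 2.31 against 0.478 and 1.67 against 0.503. All 5 markers that the rule did not use were thus between 1.73 and 2.85 higher on the log2 scale within each ending. These markers were named with earlier results of the same data known, so their shared direction is a description and no independent check. Relative to Apoe-low microglia the differences were wider, for example 4.99 and 4.83 for Lgals3 and 4.00 and 3.67 for Itgax.

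**Figure D2:**
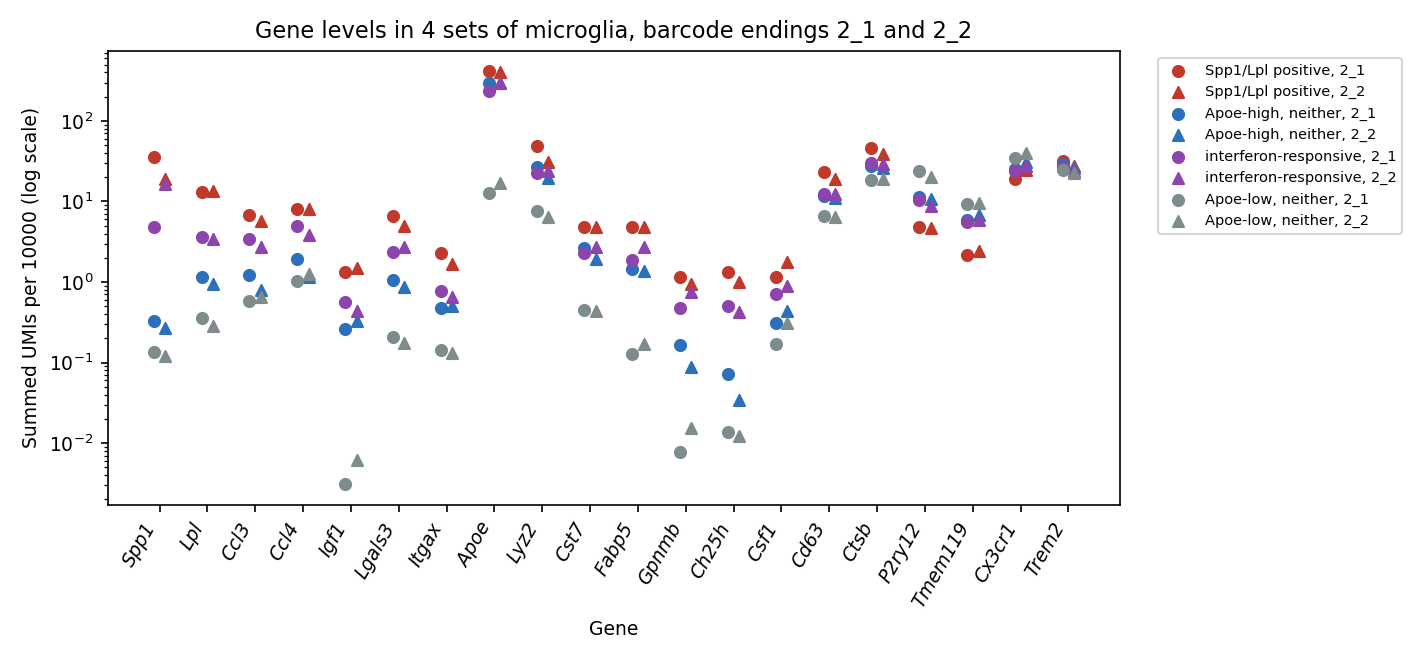
Summed UMIs per 10000 (y axis, log scale) of 20 genes (x axis) in Spp1 and Lpl positive, Apoe-high, interferon-responsive and Apoe-low microglia, circles for ending 2_1 and triangles for ending 2_2, with levels of 0 not drawn ("neither" in the legend means neither positive nor interferon-responsive). Positive cells lie above the other sets for the 7 markers and below them for P2ry12 and Tmem119.

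A few cells carried most of the transcripts of several markers. Over the 717 cells of endings 2_1 and 2_2, Spp1 ranged from 0 to 443.5 UMIs per 10000 with a median of 2.74, and the 72 highest cells held 78.1% of its UMIs. Lpl was spread more evenly, from 0 to 169.8 with a median of 7.02, and its 72 highest cells held 47.8%. Ccl3 and Ccl4 had medians of 0 and maxima of 168.8 and 324.1, and their 72 highest cells held 89.5% and 94.6% of the UMIs. For Igf1 that share was 60.2%, for Lgals3 57.7% and for Itgax 48.3%. Summed levels therefore rest on few cells, and their counting intervals understate the spread between cells.

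More of the positive cells than of the Apoe-high cells had a transcript of each marker. Unthinned, Lgals3 was detected in 64.3% of the positive cells of endings 2_1 and 2_2, Itgax in 58.9%, Igf1 in 41.7%, Ccl3 in 38.9% and Ccl4 in 29.3%, at a median of 10799 UMIs. After thinning each cell to 2000 UMIs, which left out 2 cells, the shares were 40.4% for Lgals3, 25.0% for Itgax, 15.7% for Igf1, 20.7% for Ccl3 and 17.2% for Ccl4. Apoe-high microglia thinned alike had 10.8%, 7.30%, 3.34%, 7.15% and 5.10%, with a median of 8828 UMIs before thinning. Endothelial cells of the same endings, which should lack these genes, had 2.44%, 0%, 0%, 0.813% and 2.44% of 246 cells, at a median of 10073 UMIs before thinning. A count of 0 of 246 allows a share of up to 1.22%. Spp1 was in 46.3% of thinned positive cells, 4.86% of Apoe-high cells and 6.50% of endothelial cells. The rule kept Apoe-high cells under the Lpl and Spp1 threshold, so their Spp1 share is a description. Before thinning, 232 endothelial cells were in ending 2_1 and 19 in ending 2_2, so this reference rests mostly on ending 2_1.

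Across all genes, few were as much higher in the positive cells. Of 10488 genes with at least 100 UMIs over the positive and Apoe-high cells, 157 (1.5%) were at least 2-fold higher and 579 (5.52%) at least 2-fold lower in positive cells, around a median log2 ratio of -0.15. All 157 had the same direction in both endings and 110 were past 2-fold in both. Against Apoe-low microglia, 437 of 11490 genes (3.8%) were higher and 1772 (15.4%) lower, and against interferon-responsive microglia 115 of 8851 (1.3%) were higher and 345 (3.9%) lower. Leaving Lpl, Spp1, Apoe, mitochondrial and ribosomal protein genes out of the totals moves every log2 ratio to Apoe-low cells by 0.18 and that to Apoe-high cells by 0.04. The number of lower genes depended on the comparison cells: 163 were lower with endings 2_1 and 2_2 alone, an alternative chosen after the data were seen, and 124 without cells that carried markers of another class.

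Of the 20 genes with the largest ratio, 12 belonged to the markers or to a gene list and 8 (Mmp12, Il4i1, Dkk2, Tmem163, Myof, Adam8, Srxn1 and Baiap2l2) to none. Mmp12, the macrophage elastase, had 1.41 UMIs per 10000 in positive and 0.0224 in Apoe-high cells of ending 2_1, and 1.02 and 0.00954 in ending 2_2. It was detected in 11.4% of positive and 0.834% of Apoe-high cells. Il4i1, a secreted enzyme that oxidises aromatic amino acids, had 1.12 against 0.0989 in ending 2_1 and 0.762 against 0.0926 in ending 2_2. The extracellular matrix protein genes Fn1 (fibronectin) and Postn (periostin) were higher by 4.17 and 4.65 on the log2 scale in ending 2_1 and by 3.17 and 3.33 in ending 2_2. Adam8, a membrane metalloproteinase, and Srxn1, an oxidative stress response gene, were higher by 2.46 and 2.49 in ending 2_1 and by 3.12 and 2.96 in ending 2_2. Cspg4, a proteoglycan known from oligodendrocyte precursors, was in 16.0% of positive and 2.29% of Apoe-high cells, while the precursor markers Pdgfra, Vcan and Tnr had 4 UMIs each and Ptprz1 44 UMIs in all positive cells.

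Counts in the gene lists below are over all endings unless an ending is named. They stand against 1.5% of all genes higher and 5.52% lower, and several lists hold genes that mark the cells. Of 13 chemokine genes with enough UMIs, 7 were higher and 1 lower than in Apoe-high cells, with a median log2 ratio of 1.02 against -0.15 over all genes, and these include the markers Ccl3 and Ccl4. Ccl6 was higher by 1.65 and 1.28 (endings 2_1 and 2_2), Ccl9 by 1.25 and 1.20 and Cxcl14 by 1.76 and 2.08 on the log2 scale. The chemokine receptor Cxcr4 was higher by 1.94 and 1.86. Other inflammatory ligands went opposite ways in the endings, with log2 ratios of -0.73 and 1.33 for Ccl2, -2.17 and 1.18 for Il1b, -0.72 and 1.62 for Tnf and -2.33 and 0.29 for the interferon-induced Cxcl10. No direction is therefore given for them.

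Among 18 growth factor and ligand genes, 8 were higher and 1 lower, with a median of 0.87, and the list holds Spp1, on which the cells were chosen, and the markers Igf1 and Lgals3. Csf1, the ligand of the microglial survival receptor Csf1r, had 1.16 UMIs per 10000 in positive and 0.309 in Apoe-high cells of ending 2_1, and 1.76 and 0.431 in ending 2_2. Csf1r itself was lower by 0.47 on the log2 scale in both endings. Gpnmb, a glycoprotein of phagocytes with high lysosomal load, had 1.16 against 0.163 and 0.956 against 0.0869 and was detected in 11.0% of positive cells. Il1rn, the natural antagonist of the interleukin 1 receptor, was higher by 4.28 and 3.47. Among 14 cytokine and feedback genes as a whole, 2 were higher and 0 lower over all endings, with a median of 0.35. Within ending 2_1, 2 were higher and 2 lower (median 0.12), and within ending 2_2, 4 were higher and 0 lower (median 0.68).

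Of 22 genes of lipid uptake, storage and efflux, 8 were at least 2-fold higher and 1 lower, with a median log2 ratio of 0.80, and the list holds Lpl and Lgals3. Apoe, which carries cholesterol and other lipids between brain cells, had 412.5 UMIs per 10000 in positive and 299.1 in Apoe-high cells of ending 2_1, and 408.2 and 295.4 in ending 2_2, a ratio under 2-fold. Apoe-high cells were chosen by their Apoe level, which sets this ratio in part, so it is a description. Ch25h, which makes the oxysterol 25-hydroxycholesterol, had 1.33 against 0.0724 and 1.01 against 0.0344. The scavenger receptors Cd36 and Msr1 were higher by 3.32 and 2.51 in ending 2_1 and by 2.84 and 2.35 in ending 2_2. The fatty acid binding protein gene Fabp5 was higher by 1.73 and 1.83 and Fabp3 by 1.69 and 1.67. Plin2, which coats lipid droplets, was higher by 1.26 and 0.96. Of 15 cholesterol synthesis genes, 0 were higher and 2 lower, with a median of -0.35, but with medians of 0.28 and 0.39 within endings 2_1 and 2_2, so their direction depends on the comparison cells.

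Of the published DAM lists, stage 1 had 1 of 10 genes at least 2-fold higher and 0 lower (median 0.60) and stage 2 had 7 of 18 higher and 0 lower (median 0.74), and stage 2 contains Lpl and Itgax. Cst7, which encodes cystatin F, an inhibitor of lysosomal cysteine proteases, had 4.84 against 2.66 UMIs per 10000 in ending 2_1 and 4.80 against 1.93 in ending 2_2. Lyz2, the macrophage lysozyme, had 49.1 against 26.9 and 30.6 against 19.6. Cystatin B (Cstb) was higher by 1.43 and 1.48, whereas the abundant cystatin C gene Cst3 was lower by 0.42 and 0.44. Trem2, the lipid receptor on which the DAM program depends in amyloid models, differed by 0.15 and 0.12, but was part of the gate.

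Few lysosomal genes differed by 2-fold, but most were slightly higher in positive cells. Of 26 genes, 2 were at least 2-fold higher and 0 lower. The log2 ratio was above 0 for 21 of them, with a median of 0.31 against -0.15 over all genes. Within endings 2_1 and 2_2 the median was 0.27 and 0.21. The proteases Ctsb and Ctsd were higher by 0.75 and 0.55 in ending 2_1 and by 0.58 and 0.48 in ending 2_2, Cd63 of late endosomes by 0.95 and 0.79, and Ctss was lower by 0.26 and 0.30. The genes past 2-fold were Gpnmb, given above, and Atp6v0d2, a proton pump subunit, which was higher by 4.35 and 4.20 at low levels of 0.166 and 0.123 UMIs per 10000. Of 17 complement and phagocytic receptor genes, 3 were higher and 1 lower (median -0.08), and C1qa was lower by 0.23 and 0.14.

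Several homeostatic genes were lower in the positive cells. Of 20 genes, 0 were at least 2-fold higher and 5 lower than in Apoe-high cells, against 5.52% of all genes lower, with a median log2 ratio of -0.56, and against Apoe-low cells 13 were lower. P2ry12, a part of the gate, had 4.78 UMIs per 10000 in positive and 11.3 in Apoe-high cells of ending 2_1, and 4.66 and 10.7 in ending 2_2. Tmem119, which the rule did not use, had 2.14 against 5.83 and 2.46 against 6.87. The lens crystallin gene Crybb1 was lower by 1.69 and 1.52, the fructose transporter gene Slc2a5 by 1.54 and 1.77 and the lectin gene Siglech by 0.93 and 1.00. Sall1, a transcription factor of microglial identity, was lower by 1.04 and 0.71. Fcrls had ratios of 0.24 and 0.54, the opposite direction.

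Few genes of antigen presentation, interferon response or integrins differed by 2-fold. Of 13 MHC class I genes 0 were higher and 0 lower (median 0.05), with B2m at -0.02 and -0.00. Of 6 MHC class II genes 0 were higher and 0 lower, and of 20 interferon response genes 0 were higher and 1 lower, where the rule itself had left out cells with several interferon genes. Among 13 integrin and osteopontin receptor genes 2 were higher and 0 lower. The fibronectin receptor subunit Itga5 was higher by 1.12 and 1.38, and Itgam (CD11b) was lower by 0.54 and 0.52.

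Of the remaining lists, 17 glycolysis and hypoxia genes had a median of 0.50 with 2 higher and 2 lower over all endings. Within each of endings 2_1 and 2_2, 1 of 16 was higher and 0 lower, with medians of 0.50 and 0.71. The 8 iron handling genes had a median of 0.45 with 2 higher and 0 lower over all endings. Of these, 0 were higher within ending 2_1 and 1 within ending 2_2, with medians of 0.48 and 0.67. Mif was higher by 0.97 and 1.12 and the glycolytic enzyme gene Pkm by 0.86 and 0.80. The ferritin subunits Fth1 and Ftl1 were higher by 0.70 and 0.93 in ending 2_1 and by 0.80 and 0.92 in ending 2_2, and the iron exporter gene Slc40a1 was lower by 0.78 in both. Of 29 transcription factor genes 3 were higher and 1 lower (median -0.00). Atf3, a stress-induced factor, was higher by 1.49 and 2.22, Bhlhe40 by 1.35 and 1.72 and Mitf by 0.64 and 0.83. The cell cycle inhibitor gene Cdkn1a was higher by 1.02 and 1.48, while the proliferation genes Mki67 and Top2a were detected in 0.959% and 2.19% of positive cells.

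The 15 genes with the largest ratio in the other direction, from Gria2 and Dclk1 to Cspg5, are mostly known from neurons and astrocytes. They had 1 to 30 UMIs each in all positive cells. The summed level of 8 astrocyte markers was 2.06 UMIs per 10000 in positive and 15.3 in Apoe-high cells over all endings, but 1.58 and 3.82 in ending 2_1 and 2.60 and 4.55 in ending 2_2. With endings 2_1 and 2_2 alone and without cells of another class (558 positive and 1668 Apoe-high cells), an alternative chosen after the data were seen, the microglial genes Crybb1, Slc2a5 and Tmem119 were among the 15 lowest, with Crybb1 and Slc2a5 at log2 ratios of -1.78 and -1.73.

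Interferon-responsive microglia, which the rule set apart, carried part of the same genes. Of those 526 cells, 64 (12.2%) also reached the Lpl and Spp1 level. In ending 2_1 the positive cells had 6.80 UMIs per 10000 of Ccl3, 6.53 of Lgals3 and 2.31 of Itgax, against 3.42, 2.36 and 0.768 in interferon-responsive cells. In ending 2_2 the values were 5.78, 5.02 and 1.67 against 2.71, 2.68 and 0.648. Interferon-responsive cells lay between positive and Apoe-high cells for these 3 genes in both endings, and Tmem119 was 5.52 and 5.89 in them, near the 5.83 and 6.87 of Apoe-high cells. This order did not hold for all genes. The matrix genes Fn1 and Postn were slightly higher in interferon-responsive than in positive cells of ending 2_2, and lower in those of ending 2_1. Their higher level over Apoe-high cells is therefore not particular to the positive cells in ending 2_2. Spp1, on which the positive cells were chosen, was 16.4 in interferon-responsive and 18.95 in positive cells of ending 2_2. In ending 2_1 it was 4.77 and 35.5. Gpnmb was 0.743 in interferon-responsive and 0.956 in positive cells of ending 2_2, and 0.469 and 1.16 in ending 2_1.

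Gene levels changed with the cell's own Lpl and Spp1 level, in shapes that differed between genes. In endings 2_1 and 2_2 together, 1821 gated microglia without the interferon genes had neither transcript and 1495 had a sum above 0 and under 5 per 10000. The positive cells fell into 288 at 5 to 10, 176 at 10 to 20, 139 at 20 to 50, 56 at 50 to 100 and 58 above 100 UMIs per 10000. P2ry12 went from 18.7 in cells without Lpl and Spp1 over 11.2, 7.95, 4.68, 2.84 and 1.80 to 1.73 UMIs per 10000 in the highest bin. Tmem119 went from 8.70 over 6.03, 4.03, 2.22, 1.32 and 0.827 to 0.432. Tmem119 was lower in every further bin in both endings. These bins are defined by genes of the rule and are a description.

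The secreted markers had other shapes. Lgals3 was 0.323 UMIs per 10000 in cells with neither transcript, 1.09 and 1.72 in the next bins, 5.39 and 7.86 at 10 to 50, and 11.1 and 10.8 in the last. Igf1 went from 0.0591 to 2.80. Apoe was 116.7 in cells with neither, 288.0 in the next bin and between 341.2 and 516.0 in positive cells. Ccl3 and Ccl4 rose in a step, from 1.45 and 2.13 at 5 to 10 to 5.30 and 9.29 at 10 to 20. They peaked in the bin of 20 to 50, at 12.6 and 16.9, and were 8.11 and 5.76 above 100. This peak came from ending 2_1, where they were 17.9 and 23.1. In ending 2_2 they were 8.32 and 11.9 at 20 to 50 and 9.79 and 11.7 above 100, where that bin held 17 cells. The median depth was 7357 UMIs in the lowest and 16450 in the highest bin.

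**Figure D3:**
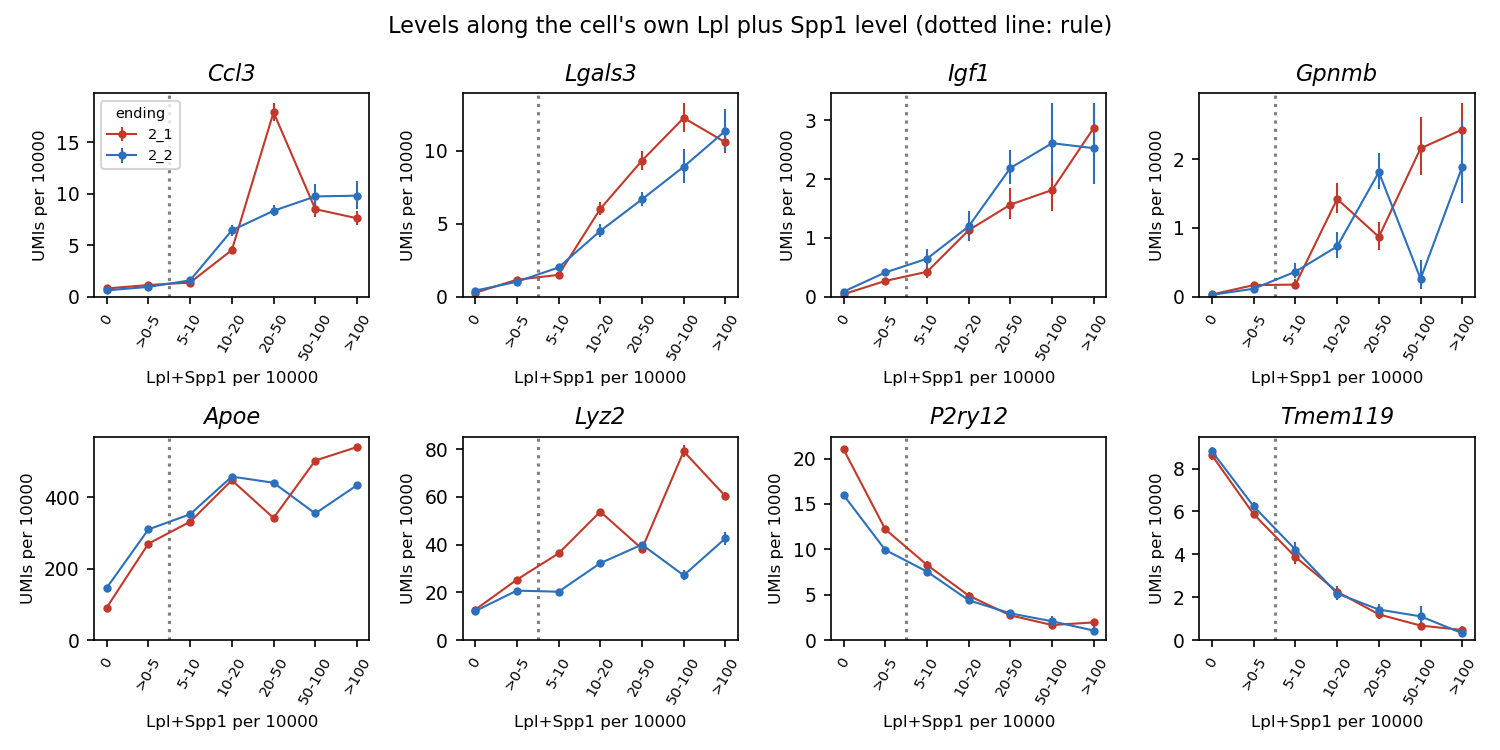
Summed UMIs per 10000 (y axes, each from 0) of 8 genes in bins of the cell's own Lpl plus Spp1 level (x axes, UMIs per 10000), for ending 2_1 (red) and 2_2 (blue) with exact 95% Poisson intervals, which cover counting error only. P2ry12 and Tmem119 are lower and Lgals3 and Igf1 higher towards the right, and Ccl3 peaks at 20 to 50 in ending 2_1.

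Positive cells differed among themselves by which of the 2 genes led. In endings 2_1 and 2_2, 253 cells had more Spp1 than Lpl UMIs and 451 had more Lpl, with 13 equal. The Spp1-led cells had a median of 14175 UMIs and the Lpl-led cells 9179. The summed Lpl and Spp1 level also differed. Spp1 was 63.4 and Lpl 9.22 in Spp1-led cells, against 2.76 and 16.6 in Lpl-led cells, on the scale used above. Gpnmb, Igf1 and Itgax also rose with that summed level across the bins of positive cells in both endings together. The part of the summed level in the ratios between Spp1-led and Lpl-led cells was not tested. Gpnmb was 5.55-fold higher in Spp1-led cells of ending 2_1 and 4.64-fold in ending 2_2, Lyz2 2.81-fold and 2.76-fold, Igf1 2.68-fold and 1.86-fold, and Itgax 2.30-fold and 1.74-fold. Apoe was 1.83-fold and 2.00-fold higher in them. Lipid handling genes did not all go with Spp1, since Ch25h was 2.36-fold and 1.66-fold higher in Lpl-led cells and Plin2 was 1.07-fold and 1.16-fold in Spp1-led over Lpl-led cells, with counting intervals that include 1.

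Several chemokines were higher in Lpl-led cells, but not all. Ccl3 was 10.1 UMIs per 10000 in Lpl-led and 2.94 in Spp1-led cells of ending 2_1, and 7.31 and 3.51 in ending 2_2. Ccl4 was 13.1 and 2.15, and 9.64 and 5.49, a ratio of 6.09 in ending 2_1 and 1.76 in ending 2_2. Ccl12 was 2.76-fold and 2.34-fold higher and Ccl9 1.94-fold and 1.77-fold higher in Lpl-led cells, whereas Cxcl14 was 1.68-fold and 1.92-fold higher in Spp1-led cells. Ccl2 went opposite ways in the endings, at 0.153-fold and 3.08-fold in Spp1-led over Lpl-led cells. Atf3 was 1.98-fold and 1.97-fold higher in Lpl-led cells. Csf1 was close to equal, at 0.97-fold (counting interval 0.82 to 1.15) and 1.06-fold (0.90 to 1.24) in Spp1-led over Lpl-led cells. Lgals3 was 1.51-fold higher in the Spp1-led cells of both endings together.

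**Figure D4:**
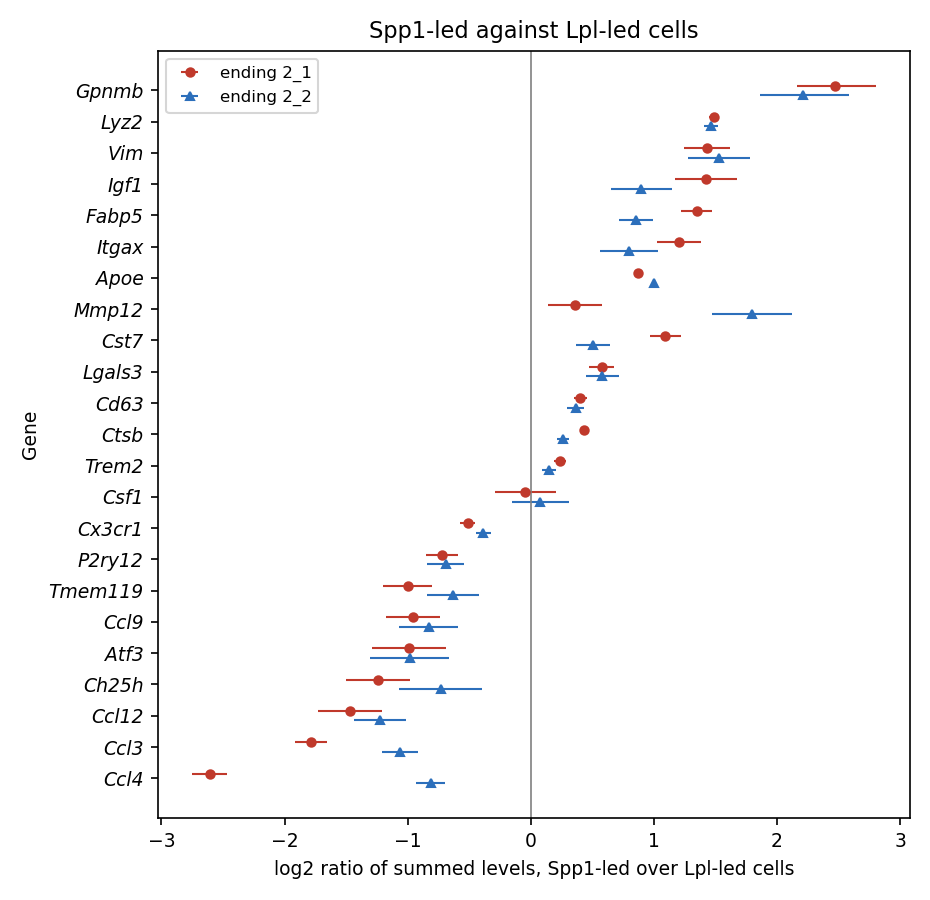
Log2 ratio of summed levels in Spp1-led over Lpl-led cells (x axis) for 23 genes (y axis), circles for ending 2_1 and triangles for ending 2_2, with 95% intervals that cover counting error only. Gpnmb and Lyz2 lie to the right and Ccl3, Ccl4 and Atf3 to the left in both endings, and Csf1 lies at 0.

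Rank correlations across cells are a description only, because the cells were chosen on the sum of Spp1 and Lpl, which also shapes the correlations of either gene with others. Each cell was thinned to 5000 UMIs, which kept 649 cells and left out 68, and the cells of an ending are not replicates. Spearman's rho of Spp1 in ending 2_1 (359 cells) and 2_2 (290 cells) was 0.47 and 0.45 with Lyz2, 0.39 and 0.44 with Apoe, 0.40 and 0.32 with Itgax and -0.44 and -0.28 with P2ry12. Lpl had 0.28 and 0.33 with Ccl3 and 0.34 and 0.33 with Ccl4, but -0.15 and -0.31 with Apoe. Ccl3 and Ccl4 had 0.55 and 0.62 with each other. Spp1 and Lpl had -0.10 and -0.18, and a rule that selects on their sum by itself lowers this value.

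The second 10x table held columns of 2 further groups, named L7 and L8, whose headers are tied to no library. In L7, 15 of 233 gated microglia met the rule (6.44%, exact 95% interval 3.65 to 10.4%), and in L8, 49 of 651 (7.53%, 5.62 to 9.83%). Apoe was 0.248 UMIs per 10000 (4 UMIs) in the positive cells of L7 and 155.1 in those of L8. No genotype was assigned from this. The positive cells of L7 had 9.62 UMIs per 10000 of Ccl3, 5.34 of Lgals3 and 1.74 of Itgax, against 1.48, 0.112 and 0.0599 in its other gated microglia. In L8 these values were 11.4, 3.06 and 0.371 against 0.690, 0.223 and 0.0817. P2ry12 was 5.03 against 22.2 in L7 and 10.6 against 25.1 in L8. Ccl3, Lgals3 and Itgax were thus higher and P2ry12 lower in the positive cells of L7, where Apoe was almost at 0, as in those of L8. Igf1 rested on 11 and 2 UMIs, and Gpnmb had 0 UMIs in the positive cells of both groups.

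The same cell rule was applied to Smart-seq2 cells, where each cell belongs to a named animal. These cells were sorted as CD45 and CD11b positive, and their reads carry no molecular identifiers, so levels are reads per 10000. Among WT white matter cells, 17 of 126 passing cells were positive, and the share per animal was 10% in A2, 13.3% in A3, 25.6% in A4, 20% in A5, 0% in A6 and 2.86% in A7. In WT grey matter 1 of 147 cells was positive, in A7 (5.26%), and the other 6 animals had 0%. The mean share was 12.0% ± 9.83 (SD, n = 6) in white and 0.752% ± 1.99 (SD, n = 7) in grey matter. White matter was higher in 4 of the 6 animals with both tissues, equal in A6 and lower in A7.

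The mean difference within animals was 11.1 percentage points (SD 11.0, n = 6), with p = 0.125 in a two-sided exact permutation test that flips the sign per animal and adjusted p = 0.253 over 5 tests (Benjamini-Hochberg). The smallest p for 6 untied pairs is 0.0313. A6 was at 0% in both tissues, so these shares could not reach that value or pass the threshold. Without the animal as a replicate block, an exact permutation of tissue labels gave 11.2 points and p = 0.00874. As the summed Lpl and Spp1 level on a log2 scale, within animals, the difference was 3.85 with p = 0.0313 (exact permutation), higher in white matter in all 6 animals. With a gate that left out Trem2 the difference in share was 5.87 points.

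In animals labelled Trem2ko the share was lower in white matter than in WT, but not beyond the spread. Trem2 was 2.74 to 7.07 reads per 10000 in white matter of A8 to A11 and 20.3 in A12, against 17.9 to 39.7 in WT, so A12 goes against its label. A13, also labelled Trem2ko, had 27.4 in 4 white matter cells, again within the WT range. It had under 5 passing cells and was left out of the shares. The share was highest in A10 (9.38%) and A8 (7.41%), followed by A12 (4.17%), A11 (2.38%) and A9 (0%) (mean 4.67% ± 3.77, SD, n = 5; 11 of 264 cells). In grey matter it was 0% in 4 animals and 1.22% in A12 (mean 0.244% ± 0.545, SD, n = 5). White matter was higher in 4 of 5 animals, by 4.42 points on average (SD 3.85). The exact permutation test gave p = 0.125 and adjusted p = 0.253. The smallest p for 5 untied pairs is 0.0625. A9 was at 0% in both tissues, so 0.125 is the smallest p that these shares could give. Without the replicate block p was 0.0476 by exact permutation.

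The animals labelled Trem2ko had a white matter share 7.31 points lower than WT animals (exact permutation p = 0.152, adjusted p = 0.253, n = 5 and 6). With a gate without Trem2, which the label itself affects, it was 2.48 points lower, and without A4 it was 4.57 points lower. The difference between the tissue effects of the labelled genotypes was -6.67 points (exact permutation p = 0.232, adjusted p = 0.290), and -3.76 without A4. A11 and A12 were sequenced to median depths of 571000 and 561700 reads per white matter cell, against 64229 to 129762 in WT animals, and the part of depth was not tested.

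In prefrontal cortex the share was 0% in A91, 38.9% in A93, 36.4% in A99 and 45.8% in A100 of 5xFAD (mean 30.3% ± 20.6, SD, n = 4; 26 of 71 cells). In WT it was 28.6% in A132 and 0% in A173 (mean 14.3% ± 20.2, SD, n = 2; 4 of 41 cells). The groups overlapped, with a difference of 16.0 points (two-sided exact permutation p = 0.467, adjusted p = 0.467, smallest possible 0.0667). It was 1.70 points without A173, 30.3 without A132 and 26.1 without A91, so single animals set its size.

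**Figure D5:**
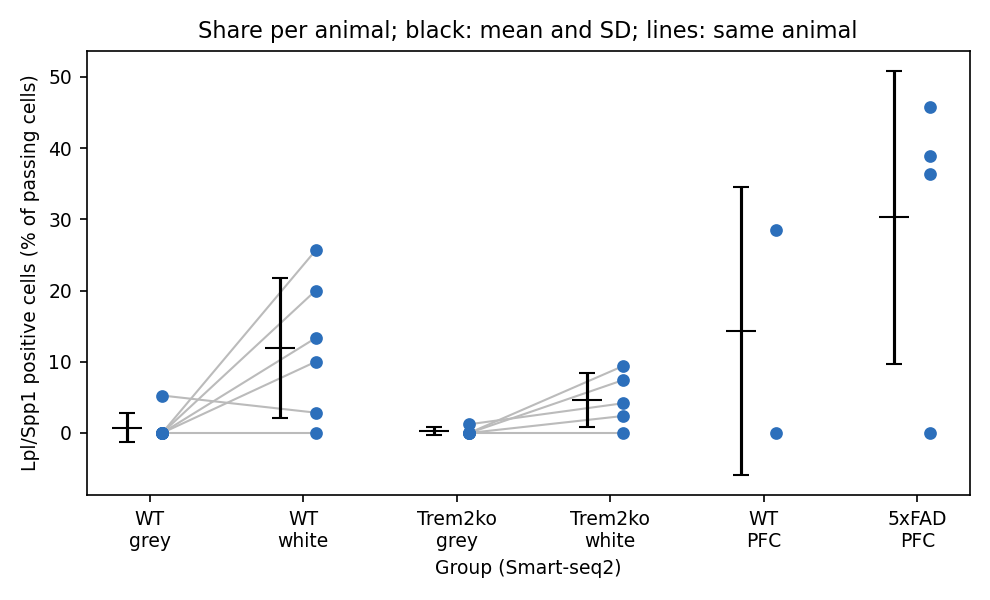
Share of passing Smart-seq2 cells that met the Spp1 and Lpl rule (y axis, percent) per animal (points) in each group (x axis), with mean and SD in black and lines joining the tissues of 1 animal. WT white matter spans 0 to 25.6%, Trem2ko white matter 0 to 9.38% and 5xFAD prefrontal cortex (PFC) 0 to 45.8%.

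Positive Smart-seq2 cells of WT white matter had higher levels of several of the marker genes than the other cells, but not of Ccl3. Levels were summed in the animals with at least 3 positive cells, A4 (10 cells) and A5 (3 cells), so no test was made. Lgals3 was 6.85 and 10.5 reads per 10000 in positive cells of A4 and A5 and 0.564 and 0.0907 in the other cells of the same animals. Itgax was 2.96 and 4.63 against 0.0166 and 0.0567, and Apoe was 1664 and 1326 against 468.0 and 247.2. P2ry12 was 4.75 and 2.81 against 19.6 and 26.5, and Tmem119 was 22.7 and 6.79 against 67.9 and 100.3. Ccl3 was 0.937 and 0.108 against 1.22 and 0.125, and Atf3 was also not higher in the positive cells, at 0.0500 and 0.541 against 0.290 and 0.556. Ccl4 was 0.237 and 0.135 against 0.0124 and 0.0454.

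The positive cells of the animals labelled Trem2ko were unlike each other. In A10, 3 positive cells had Lpl at 11.2 and Spp1 at 0 reads per 10000, with Apoe at 1.65 against 69.6 in the other cells, Lgals3 at 0.0227 against 0.0236, and P2ry12 at 36.2 against 26.0. In A12, 4 positive cells had Lpl at 26.4 and Spp1 at 5.20, with Apoe at 491.0 against 33.8, Itgax at 3.66 against 0.00652, Igf1 at 3.26 against 0.00427, and P2ry12 at 9.21 against 57.2. The cells of A10 thus met the rule by Lpl alone without the other marker genes, and those of A12 held most of them, apart from Lgals3 at 0.00336. The remaining positive cells, in A8 and A11, were 2 in each animal and were not summed.

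The 13 droplet cells outside endings 2_1 and 2_2 also met the rule mostly by Lpl. Lpl was detected in 11 and Spp1 in 7 of them, and 3 reached the Apoe-high level, against 655 of the 717 cells of endings 2_1 and 2_2. The highest had 50.4 UMIs per 10000 of Lpl, 5.46 of Spp1 and 23.9 of Apoe in ending 3. Apoe was under 10 UMIs per 10000 in 8 of the 13.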

How the data were processed

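Gene counts per cell (UMI counts for 10x, read counts for Smart-seq2) were deposited by the authors. The submitters' processing notes name bcl2fastq, FastQC, Trim Galore, Cell Ranger 4 and mm10, and the aligner and counter of the Smart-seq2 reads are not given in the sources used here. Of the second 10x table, 11224 columns that match no sample here were not used.

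Counts were divided by each cell's total and summed within sets of cells per 10000. The members and gene lists were chosen with earlier results of these data known. A gene counted as higher or lower at 2-fold, with at least 100 UMIs over both sets. Named genes were the markers, the largest differences and highest levels of each list, and the 20 and 15 largest ratios up and down with the same direction in both endings that held most positive cells, leaving out mitochondrial, haemoglobin and unnamed gene models, and not all are printed. The 10x data allow no test. Poisson and binomial intervals (95%) cover counting error only. Median depth was 6615 to 7690 UMIs per barcode by ending.

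Smart-seq2 shares were computed per animal with at least 5 passing cells and compared by exact permutation, with Benjamini-Hochberg adjustment over 5 tests. White and grey matter were paired by the animal that the labels name. In A5 grey matter, 2 pairs of wells had near-identical counts (correlation 0.986 to 0.995, against at most 0.678 elsewhere). None was positive, so each share of 0 stands. Replicates are animals as the labels name them. Alternatives covered thresholds, gates, thinning, scaling and leaving out each ending or animal. Scripts were checked on simulated data and used Python 3.11.15, numpy 2.4.6, scipy 1.17.1, pandas 2.3.3, statsmodels 0.14.6 and matplotlib 3.10.9. Promoter windows are from RefSeq (GRCm38.p6) and gene positions from the GRCm38 annotation.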

Additional observations from a re-analysis of the deposited data

Results flagged for a closer look

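In 2 of the 5 groups of 4 to 10 animals, 1 animal stood far from the others by Dixon's criterion. Chance meets it in about 1 in 20 groups of untied values, but that rate does not hold here, because all other animals were at 0% and any single positive cell meets it. WT grey matter of A7 had a share of Spp1 and Lpl positive cells of 5.26% against 0% in the other 6 animals, and grey matter of A12, labelled Trem2ko, had 1.22% against 0% in the other 4. Each value is 1 positive cell.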

How the results depend on the processing

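The share of gated microglia that were positive (6.73%) was 11.4% and 4.01% with Lpl and Spp1 thresholds of 2.5 and 10 per 10000, 4.91% with a gate of 50, 8.88% without cells of another class, 4.32% with both genes required and 12.2% after thinning to 2000 UMIs, where 1 UMI alone reaches the threshold. It ranged from 4.07% to 9.00% with each ending left out and was 16.3% in endings 2_1 and 2_2 alone. The 157 higher genes became 84 after thinning. The 579 lower genes became 132 after thinning, 60 with Apoe-high set at the upper 10%, 124 without cells of another class, 363 to 629 with each ending left out (363 without ending 3), and, in alternatives chosen after the data were seen, 163 with endings 2_1 and 2_2 alone and 112 with both restrictions. Trim9 reversed to 0.35 without cells of another class, and with both restrictions Slc7a10 reversed to 0.58, Trim9 to 0.32 and Nrcam to 0.10 (log2). The cause was not tested.

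Without the replicate block, the white to grey difference in share was 11.2 points in WT (exact permutation p = 0.00874) and 4.42 in Trem2ko (exact permutation p = 0.0476), and as a summed log2 level, paired by animal, 3.85 in WT (exact permutation p = 0.0313). The other planned settings changed no side of the threshold in the 5 Smart-seq2 comparisons. With each animal left out, the WT difference ranged from 8.19 to 13.8 points, Trem2ko from 3.18 to 5.53, Trem2ko against WT from -9.70 to -4.57, the difference of tissue effects from -9.37 to -3.76 and 5xFAD against WT from 1.70 to 30.3. The few animals and few positive cells limit these comparisons.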
